A study of Mus musculus with 6 samples.

Results

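In all, 10 transcripts of mast cells and of type 2 immunity were followed in mouse duodenum with and without Atg7, the E1-like enzyme needed to build autophagosomes. They are the goblet cell product Retnlb, the mast cell proteases Mcpt1, Mcpt2, Mcpt4, Cma1, Tpsb2 and Cpa3, and the cytokines Il4, Il13 and Il5. A member is a gene that 1 row of the array table names alone, and each of the 10 had exactly 1 such row, out of 19938 genes measured. The arrays came from normal duodenum of Apc+/- mice (n = 3 arrays) and of Apc+/-Atg7-/- mice (n = 3 arrays). Both genotypes were of C57Bl6 background and heterozygous for the tumour suppressor Apc. The labels give no age, no detail of the Atg7 deletion and no cell type in which it acts. All values are the authors' log2 signals, so a difference of 1 is a 2-fold change, and differences are Apc+/-Atg7-/- minus Apc+/-.

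Mast cells are tissue immune cells that store proteases in granules. In mice, those of the gut epithelium (mucosal mast cells) are known for the chymases Mcpt1 and Mcpt2, and those of the submucosa and other connective tissue for Mcpt4, Cma1, tryptase Tpsb2 and carboxypeptidase Cpa3. The type 2 cytokines Il4, Il13 and Il5, made mainly by Th2 cells and group 2 innate lymphoid cells, act on mast cells, eosinophils and the epithelium. In goblet cells Il4 and Il13 induce Retnlb, a secreted resistin-like protein that acts on bacteria and on worms.

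Of the 10 genes, Retnlb fell in Apc+/-Atg7-/- duodenum and the other 9 did not pass the test. This test was limma's, with Benjamini-Hochberg adjustment over all genes and a threshold of 0.05, at which 0.0401% of all genes were called lower and 0.0702% higher. Of the 10 genes 0 were called higher, and at an unadjusted p under 0.05 there were 0 higher (2.38% of all genes) and 3 lower (2.73% of all genes). In 3 of the 10, Retnlb, Mcpt1 and Mcpt4, the highest Apc+/-Atg7-/- signal was below the lowest Apc+/- signal, as was so for 5.23% of all genes. The reverse separation, seen in 4.81% of all genes, occurred in 0 of the 10. The mean signal was lower in 9 of the 10, as in 56.8% of all genes. The median difference over the 10 was -0.12, beside -0.02 over all genes tested, and 6 of the 10 differed by less than 0.2 in either direction.

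The plot of the signals shows these groups gene by gene.

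**Figure D1:**
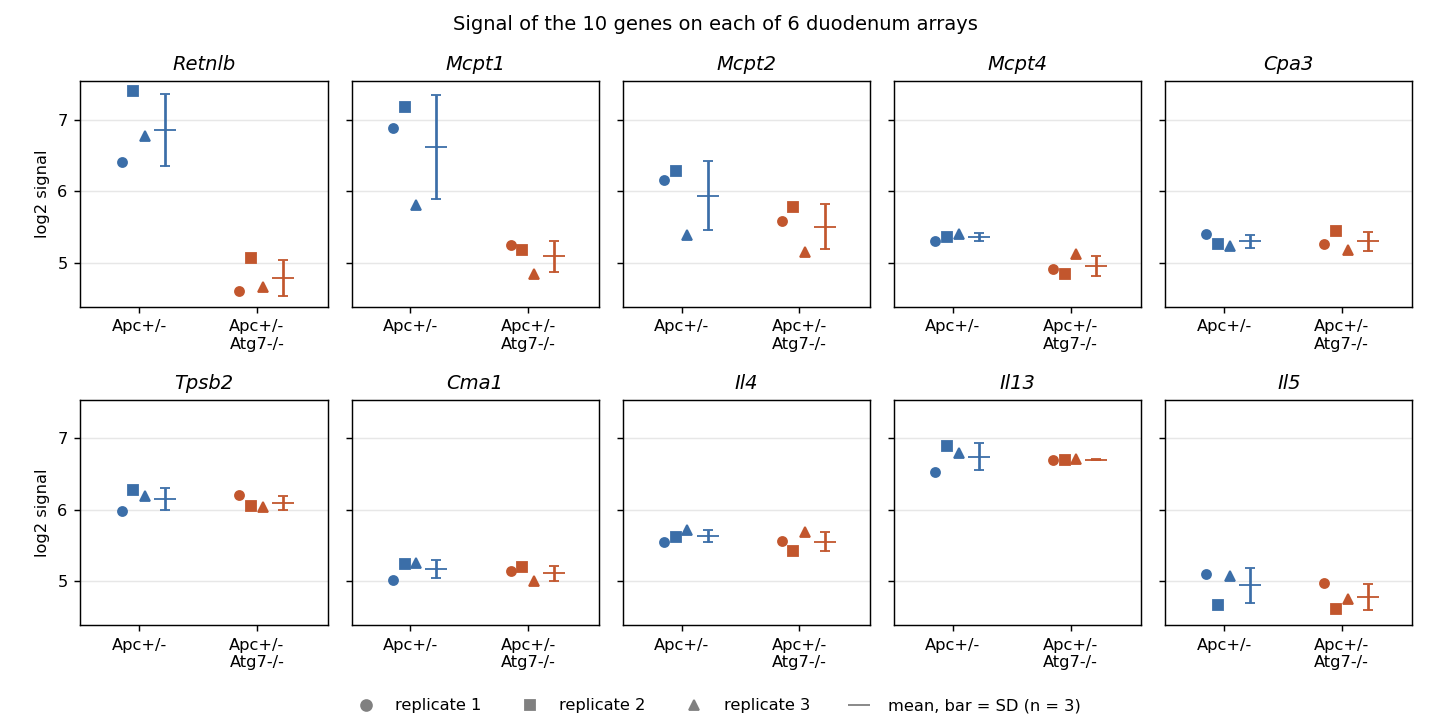
Log2 signal of the 10 genes (y axis, the same scale in every panel) on the 3 Apc+/- arrays (blue) and the 3 Apc+/-Atg7-/- arrays (orange), with marker shapes for the replicate numbers and a bar for the mean and SD. Retnlb, Mcpt1 and Mcpt4 show groups that do not overlap, with the smallest gap (0.18) for Mcpt4, while the signals of the other 7 overlap.

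The tissue and the genotype were checked first. Fabp2, a fatty acid-binding protein of small intestinal enterocytes, was the brightest of all genes, at 12.8 to 13.1 on the 6 arrays. The Atg7 signal was 7.05, 7.17 and 7.27 in Apc+/- and 6.46, 6.65 and 6.78 in Apc+/-Atg7-/- duodenum, without overlap (difference -0.53, SE 0.11, limma adjusted p = 0.242). Array medians lay between 6.43 and 6.56. Apc+/-Atg7-/- replicate 1 came from a male (Xist at 4.58, and at 10.1 to 10.3 on the other 5 arrays). Values without that array are given for Retnlb and Mcpt1, and not for genes outside the 10. Without it, 0 genes were called higher and 2 lower over all genes.

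The 10 genes were dim on this array. Ranked by mean signal among all genes, Mcpt4, Cpa3, Cma1, Il4 and Il5 lay in the lowest 25%, and all except Il13 lay in the lowest 50%. Dim signals compress differences, and detection calls were not used here, so an equal signal in both genotypes does not show an equal transcript level. In whole duodenum, fewer cells of a type and less RNA per cell cannot be told apart.

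Retnlb read 6.41, 7.40 and 6.77 on the Apc+/- arrays and 4.61, 5.07 and 4.66 on the Apc+/-Atg7-/- arrays. The highest Apc+/-Atg7-/- signal lay 1.34 below the lowest Apc+/- one, a gap wider than the spread within either genotype (0.99 and 0.46). The means were 6.86 ± 0.50 and 4.78 ± 0.25 (SD, n = 3), 4.23 times lower in Apc+/-Atg7-/- duodenum (95% confidence interval of the log2 difference -2.58 to -1.58, limma adjusted p = 0.00944). Without the male array the difference was -1.996 and no longer passed (limma adjusted p = 0.0663). With any other single array left out it lay between -2.31 and -1.81 and passed. It did not pass in an ordinary linear model without variance moderation (adjusted p = 0.765), in which 0 of all genes passed.

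Retnlb has close relatives next to it on chromosome 16, Retnla, an alternatively activated macrophage product, and Retnlg. Neither passed. Retnla read 4.03, 4.04 and 3.70 in Apc+/- and 3.70, 3.92 and 3.81 in Apc+/-Atg7-/- duodenum, with overlap (difference -0.11, SE 0.12). Retnlg differed by 0.05 (SE 0.11), and resistin itself, Retn, by -0.10 (SE 0.14). Retnla lay among the dimmest 4.38% of genes and Retnlg among the dimmest 23.1%, where a lower transcript amount might not show. A lower signal in Apc+/-Atg7-/- duodenum was seen for Retnlb, which does not set it apart from these relatives. The differences between family members were not tested.

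Markers of the goblet cells that make Retnlb differed by smaller amounts. Of 9 measured goblet cell genes, 0 passed by limma. At an unadjusted p under 0.05, 3 were lower (2.73% of all genes) and 0 higher (2.38% of all genes). Their summed signal lay at 14.1 to 14.3 (log2) in Apc+/- and at 13.9 to 14.1 in Apc+/-Atg7-/- duodenum, without overlap. The goblet cell genes with the smallest p were the chemokine Ccl6 (-0.54, SE 0.09) and the protease inhibitor Spink4 (-0.48, SE 0.12). Muc2, the main secreted mucin, differed by -0.23 (SE 0.11). Paneth cell genes were lower to a larger extent, with 0 higher and a summed signal of 13.3 to 13.5 against 12.2 to 12.6. Of 7 measured, 3 passed as lower (Ang4, Itln1 and Defa24), beside 0.0401% of all genes. The part of these cells in the Retnlb difference was not tested.

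The promoters of the chymases are shown because Mcpt1 and Mcpt4 were both lower without overlap and Cma1, in the same gene cluster, was not. Neither Mcpt1 nor Mcpt4 passed over all genes (limma adjusted p = 0.174 and 0.484). Cma1 lay among the dimmest 16.8% of genes, where a lower amount might not show. The contrast between these chymases was not tested. Each line gives the 250 bases before the RefSeq start site, 5′ to 3′ on the gene's strand, from mouse build GRCm38.p6, and capitals mark the GATA motif TGATAA. The Mcpt1 window is chr14:56017714-56017963 on the plus strand, that of Mcpt4 is chr14:56062311-56062560 on the minus strand, and that of Cma1 is chr14:55944676-55944925 on the minus strand.
Mcpt1: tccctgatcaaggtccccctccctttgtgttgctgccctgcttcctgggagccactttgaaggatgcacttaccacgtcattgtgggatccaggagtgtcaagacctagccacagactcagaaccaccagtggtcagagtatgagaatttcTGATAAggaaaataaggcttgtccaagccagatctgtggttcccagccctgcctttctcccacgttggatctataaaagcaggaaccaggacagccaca
Mcpt4: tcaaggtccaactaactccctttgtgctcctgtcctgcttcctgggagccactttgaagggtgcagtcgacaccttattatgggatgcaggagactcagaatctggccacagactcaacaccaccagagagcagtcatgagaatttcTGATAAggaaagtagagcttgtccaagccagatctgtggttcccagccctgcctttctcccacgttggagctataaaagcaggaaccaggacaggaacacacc
Cma1: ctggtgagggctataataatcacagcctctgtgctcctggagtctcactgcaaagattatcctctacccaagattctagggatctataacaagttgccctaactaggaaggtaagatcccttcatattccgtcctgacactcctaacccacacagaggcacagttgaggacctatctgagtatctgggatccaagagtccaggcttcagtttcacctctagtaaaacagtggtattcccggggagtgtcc

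The Mcpt1 and Mcpt4 windows were 84.1% identical over 246 aligned bases and shared an unbroken run of 53 bases. The Cma1 window was 62.2% identical to that of Mcpt1 over 225 aligned bases in the same kind of global alignment, with a longest shared run of 10 bases. TGATAA stood at bases -99 to -94 of Mcpt1 and -103 to -98 of Mcpt4, and on neither strand of the Cma1 window. It was held by 7.94% of the 32851 windows of that length, and by those of Mcpt1 and Mcpt4 among the 7 members with a window. Retnlb, Mcpt2 and Tpsb2 have no window here. This form of the motif was searched after the windows had been seen. GATA forms other than TGATAA and AGATAA were not searched. The Cma1 window holds ctatct, which reads agatag on the other strand, so it is not free of GATA letters.

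The other motifs were searched on both strands of the same 7 windows. The GATA form AGATAA was in those of Cpa3 and Il13 (9.99% of all windows), and the STAT6 motif, TTC and GAA with 4 bases between them, was in that of Il4 (5.85% of all windows). The E-box CATGTG was also in that of Il4 (12.3% of all windows). The CDX motif TTTATNG was in those of Mcpt1, Mcpt4 and Il13 (9.81% of all windows), and in Mcpt1 and Mcpt4 its match ctataaa overlaps the TATA box. A match describes these letters and does not show that a factor binds there.

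Mcpt1, a secreted chymase of mucosal mast cells known to rise during worm infection, read 6.88, 7.18 and 5.80 in Apc+/- and 5.25, 5.18 and 4.84 in Apc+/-Atg7-/- duodenum. The genotypes did not overlap, and Apc+/- replicate 3 stood 1.08 below the next Apc+/- array. The means were 6.62 ± 0.73 and 5.09 ± 0.22 (SD, n = 3), 2.90 times lower in Apc+/-Atg7-/- duodenum. The difference of -1.54 (95% confidence interval -2.19 to -0.88) did not pass over all genes (limma adjusted p = 0.174). Without Apc+/- replicate 3 it was -1.95 and passed (limma adjusted p = 0.0129), and without Apc+/- replicate 2 it was -1.26 (limma adjusted p = 0.529). Without the male array it was -1.615 and did not pass (limma adjusted p = 0.302).

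Mcpt2, the second mucosal chymase, which lies next to Mcpt1 on chromosome 14, read 6.15, 6.29 and 5.38 in Apc+/- and 5.58, 5.78 and 5.15 in Apc+/-Atg7-/- duodenum. These overlapped, since Apc+/- replicate 3 read below Apc+/-Atg7-/- replicates 1 and 2. The difference was -0.44 (95% confidence interval -0.95 to 0.08, limma adjusted p = 0.95). Without Apc+/- replicate 3 it was -0.72 and without Apc+/-Atg7-/- replicate 3 it was -0.26, and it passed in neither. Replicate 3 was thus the lowest array within each genotype for both mucosal chymases.

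Mcpt4, the main chymase of connective tissue mast cells in mice, read 5.30, 5.36 and 5.41 in Apc+/- and 4.91, 4.84 and 5.12 in Apc+/-Atg7-/- duodenum. The Apc+/- arrays lay within 0.11 of each other and above all Apc+/-Atg7-/- arrays. The difference was -0.40 (95% confidence interval -0.62 to -0.18), 1.32 times lower, and did not pass over all genes (limma adjusted p = 0.484). Mcpt1, Mcpt2 and Mcpt4 are paralogs, and how far their probes also bind each other's transcripts was not tested.

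The remaining granule proteases showed no difference beyond the spread between arrays. Cma1, an elastase-like member of the chymase family, read 5.02, 5.24 and 5.25 in Apc+/- and 5.14, 5.20 and 4.996 in Apc+/-Atg7-/- duodenum (difference -0.06, 95% confidence interval -0.29 to 0.17). Cpa3, carboxypeptidase A3, which trims peptides alongside the chymases, read 5.41, 5.26 and 5.23 and then 5.26, 5.45 and 5.18 (difference 0.00059, interval -0.23 to 0.23). Tpsb2, the granule tryptase, read 5.98, 6.28 and 6.20 and then 6.21, 6.05 and 6.04 (difference -0.05, interval -0.29 to 0.18). In each of these the genotypes overlapped, and each interval leaves out a signal difference as large as the Mcpt1 or the Mcpt4 one. Cma1 and Cpa3 read near the Mcpt1 mean of Apc+/-Atg7-/- duodenum (5.09) in both genotypes. At that level a lower transcript amount might not show, so their intervals describe signals only. The near-identical tryptase Tpsab1, whose transcripts an array can mix with those of Tpsb2, differed by 0.05 (SE 0.11).

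**Figure D2:**
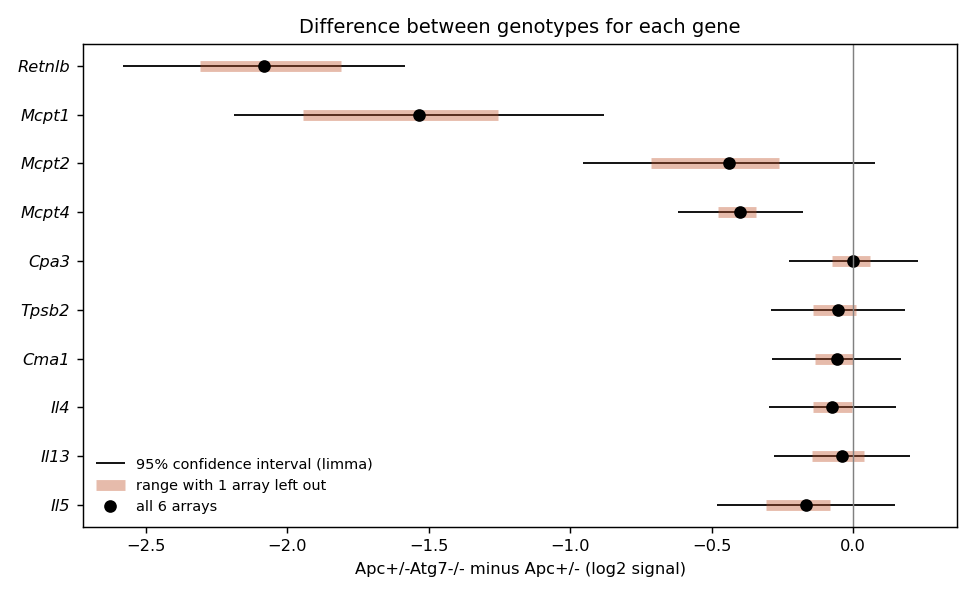
Difference between genotypes for each of the 10 genes (x axis, log2 signal, Apc+/-Atg7-/- minus Apc+/-), with limma's 95% confidence interval as a line and the range over the 6 fits that leave out 1 array as an orange band. The intervals of Retnlb, Mcpt1 and Mcpt4 lie below 0, Retnlb alone passed the adjusted test, and the other 7 intervals include 0.

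Within each array the Mcpt1 signal was also read against those of other proteases, a choice made after the values were seen. Mcpt1 minus Cpa3 was 1.48, 1.93 and 0.57 in Apc+/- and -0.02, -0.27 and -0.34 in Apc+/-Atg7-/- duodenum. Mcpt1 minus Tpsb2 went from 0.47 ± 0.75 to -1.01 ± 0.17, and Mcpt1 minus Mcpt2 from 0.68 ± 0.24 to -0.42 ± 0.16 (means ± SD, n = 3). In all 3 comparisons the genotypes did not overlap. Mcpt1 was picked for its difference and Cpa3 is dim, so these values restate the differences above and are a description. The exact permutation p was 0.1 for each (two-sided, 0.1 after Benjamini-Hochberg adjustment over the 3), the smallest that 3 against 3 arrays can give, so this test could not pass.

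Mcpt1, Mcpt2, Mcpt4 and Cma1 sit in a cluster of serine protease genes on chromosome 14 that runs on to Mcpt8, cathepsin G (Ctsg) and the granzymes, proteases of basophils, neutrophils and cytotoxic lymphocytes. Of 9 measured genes of this cluster outside the members, 0 passed by limma, and 0 had an unadjusted p under 0.05. In 0 of the 9 did the genotypes separate, and their differences ran from -0.14 (Gzme, SE 0.14) to 0.15 (Gzmb, SE 0.25). All of them except Gzmb lay in the lowest 25% of genes by mean signal. At that level a lower transcript amount might not show, so these values do not show that the cluster was unchanged. Mcpt8, a basophil protease that lies next to Mcpt4, read 4.77, 5.26 and 5.03 in Apc+/- and 4.997, 4.5998 and 5.14 in Apc+/-Atg7-/- duodenum, with overlap. Mcpt9 and Cma2 were not analysed here.

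**Figure D3:**
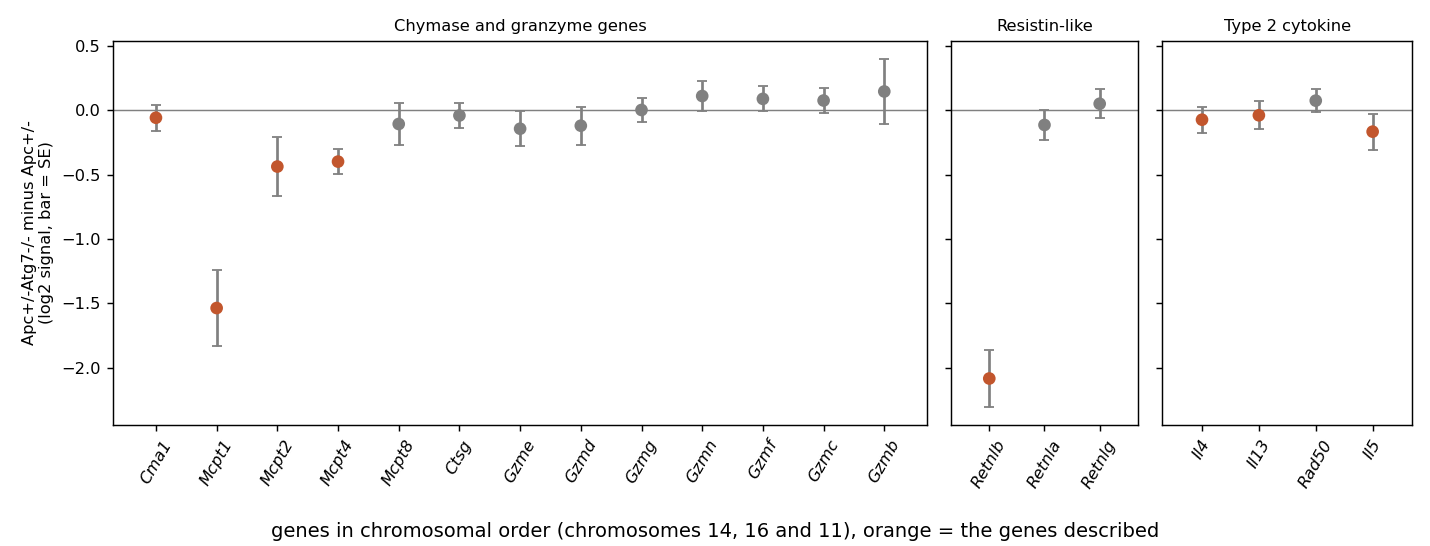
Difference between genotypes (y axis, log2 signal, bar = SE) for the measured genes of the chymase and granzyme cluster, the resistin-like cluster and the type 2 cytokine cluster, in chromosomal order along the x axis. Mcpt1 (-1.54) and Retnlb (-2.08) stand below their neighbours, and the granzymes and cytokines lie within 0.2 of 0. Apart from Gzmb and Il13, these granzymes and cytokines lay in the lowest 25% of genes by mean signal, where a lower amount might not show.

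Signals of the type 2 cytokines did not differ beyond their spread. Il13, the main inducer of goblet cell responses, read 6.53, 6.90 and 6.80 in Apc+/- and 6.70, 6.69 and 6.71 in Apc+/-Atg7-/- duodenum (difference -0.04, 95% confidence interval -0.28 to 0.20). Il4, which drives Th2 differentiation and IgE, read 5.55, 5.63 and 5.71 and then 5.56, 5.42 and 5.69 (difference -0.07, interval -0.30 to 0.15). Il5, the eosinophil growth factor, read 5.10, 4.66 and 5.07 and then 4.97, 4.605 and 4.75 (difference -0.17, interval -0.48 to 0.15). The 3 genes lie in 1 cluster on chromosome 11 around Rad50, a DNA repair gene, which differed by 0.07 (SE 0.09). Limma's adjusted p was at least 0.973 for each of these cytokines.

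Of 15 further mast cell genes measured, among them the tryptases Tpsab1 and Tpsg1, 0 passed by limma. Lower at an unadjusted p under 0.05 was 1 of these genes (2.73% of all genes), and 0 were higher (2.38% of all genes). Their median difference was -0.06, and their summed signal lay at 10.5 in each Apc+/- array and between 10.4 and 10.5 in Apc+/-Atg7-/- duodenum. That sum is led by its brightest genes, Srgn (mean 8.65 in Apc+/-) and Fcer1g (7.70). Dim genes such as Mrgprb2 (3.72) add little, so the sum does not measure mast cell content. The smallest p belonged to the transmembrane tryptase Tpsg1 (-0.20, SE 0.09) and to the transcription factor Mitf, which was higher (0.26, SE 0.13). Kit, the stem cell factor receptor on which mast cells depend, read 6.55, 6.79 and 6.87 in Apc+/- and 6.56, 6.61 and 6.54 in Apc+/-Atg7-/- duodenum. The IgE receptor chains Fcer1a and Ms4a2 differed by -0.29 (SE 0.19) and 0.01 (SE 0.09), and Ms4a2 lay among the dimmest 8.65% of genes. Kit, Fcer1a and Ms4a2 were named after their values were seen.

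Genes of mast cell growth and homing did not pass either, with 0 of 15 by limma. With an unadjusted p under 0.05, 0 were lower (2.73% of all genes) and 1 was higher (2.38% of all genes). That gene was the collagen-binding integrin Itga2 (0.28, SE 0.10), followed by the growth factor Il3 (0.15, SE 0.09). Il9, the cytokine that expands mucosal mast cells, differed by -0.04 (SE 0.11). Tgfb1, known to induce Mcpt1 in mucosal mast cells, differed by -0.11 (SE 0.10). Il9 and Tgfb1 were named after their values were seen.

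Upstream of the cytokines, the epithelial alarmins were read. Of 6 measured alarmin and cytokine genes 0 passed by limma, and 0 had an unadjusted p under 0.05 in either direction. Il33, an alarmin released by damaged cells, read 8.33, 7.68 and 9.41 in Apc+/- and 7.38, 8.26 and 7.21 in Apc+/-Atg7-/- duodenum, with overlap (difference -0.85, SE 0.39). Neuromedin U (Nmu), which activates group 2 innate lymphoid cells, differed by -0.58 (SE 0.27), also with overlap. Il25, the tuft cell alarmin, differed by 0.00093 (SE 0.09).

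Of 14 measured type 2 receptor and signalling genes, 0 passed by limma. Again 1 was lower (2.73% of all genes) and 0 were higher (2.38% of all genes) at an unadjusted p under 0.05. That gene was the Il25 receptor chain Il17rb (-0.22, SE 0.09), whose signals of 6.74, 6.71 and 6.67 in Apc+/- lay above those of 6.61, 6.50 and 6.36 in Apc+/-Atg7-/- duodenum. The Nmu receptor Nmur1 differed by -0.24 (SE 0.11). Stat6, the transcription factor through which Il4 and Il13 act, differed by 0.15 (SE 0.10), and their shared receptor chain Il4ra by -0.10 (SE 0.10).

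Of 16 measured genes known to respond to Il4 or Il13 in epithelium or macrophages, 2 fell by limma (0.0401% of all genes). The mean signal was lower in 15 of the 16 (56.8% of all genes), with a median difference of -0.15. At an unadjusted p under 0.05, 5 were lower (2.73% of all genes) and 0 higher. The list was drawn up with earlier results of these data known. Those that fell were the Paneth and goblet cell products Ang4 (-2.49, SE 0.26, limma adjusted p = 0.00944) and Itln1 (-1.24, SE 0.10, limma adjusted p = 0.00311). Both are also on the Paneth cell list, so the counts of these lists overlap. The gasdermins Gsdmc2 (-2.51, SE 0.62) and Gsdmc4 (-2.35, SE 0.56) were the other 2 whose genotypes did not overlap, and they did not pass (limma adjusted p = 0.484 and 0.437, named after their values were seen). In 4 of the 16 genes all Apc+/-Atg7-/- arrays thus lay below all Apc+/- arrays (5.23% of all genes). The goblet cell gene Clca1, the fifth at an unadjusted p under 0.05, differed by -0.34 (SE 0.13) with overlap, and was also named after its value was seen. Clca1 is on the goblet cell list too. Macrophage genes of the list differed by smaller amounts, with Arg1 at -0.02 (SE 0.09), Mrc1 at -0.05 (SE 0.10) and Chil3 at -0.23 (SE 0.12).

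Other cells that carry type 2 transcripts were read through their markers. Of 5 eosinophil, 4 basophil and 8 innate lymphoid and Th2 cell genes 0 passed by limma. Among these, Il17rb alone was lower at an unadjusted p under 0.05 (2.73% of all genes), and 0 were higher (2.38% of all genes). Eosinophil genes had a median of 0.00044, with Prg2 at 0.18 (SE 0.15) and Siglecf at -0.17 (SE 0.11). Basophil genes had a median of -0.06, with Cd200r4 at 0.11 (SE 0.12) and Cd200r3 at -0.07 (SE 0.09), and innate lymphoid and Th2 cell genes one of -0.07, with Ccr4 at -0.13 (SE 0.13). Tuft cell genes were lower in 9 of 10 (56.8% of all genes), with 0 passing by limma. At an unadjusted p under 0.05, 3 of them were lower (2.73% of all genes). The summed tuft cell signal lay at 10.02 to 10.31 in Apc+/- and at 9.75 to 9.94 in Apc+/-Atg7-/- duodenum, without overlap, led by Dclk1 (-0.63, SE 0.17) and Rgs13 (-1.03, SE 0.30).

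**Figure D4:**
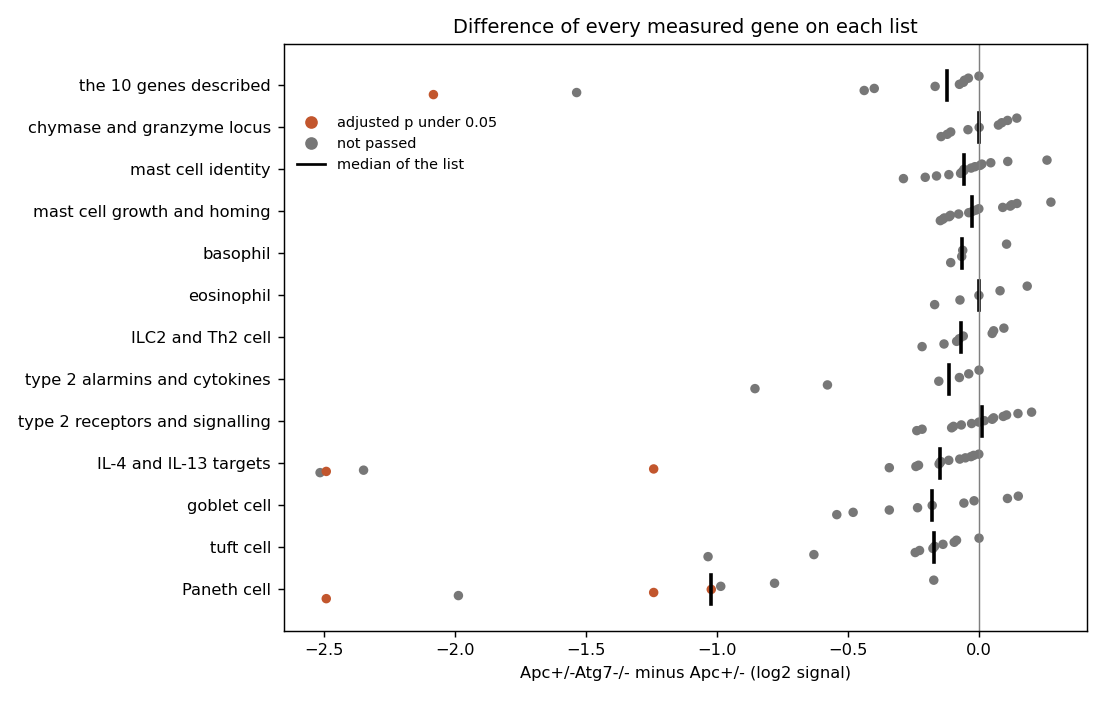
Difference between genotypes (x axis, log2 signal, Apc+/-Atg7-/- minus Apc+/-) of every measured gene on 13 lists, 1 point per gene, with a black bar at each list's median and orange points for genes past an adjusted p of 0.05. Points of the mast cell, basophil and eosinophil lists lie near 0, and those below -1 belong to the 10 genes, the Il4 and Il13 targets, the tuft cell and the Paneth cell lists.

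The genes whose profile over the 6 arrays was most like that of Retnlb were found by the root mean square difference of log2 signals centred on each gene's own mean. Closest was Mptx1, a mucosal pentraxin of Paneth cells, at 0.19, followed by Ang4 at 0.24, where the median gene stood at 1.08. Mptx1 read 7.20, 8.49 and 7.23 in Apc+/- and 5.55, 5.95 and 5.46 in Apc+/-Atg7-/- duodenum, and, as for Retnlb, replicate 2 was the highest array within each genotype. The brush border sphingomyelinase Enpp7 (0.49), Mcpt1 (0.53) and the class I-like gene H2-Q2 (0.53) came next. Mcpt1 was thus the fourth closest of all genes, while Mcpt2 and Mcpt4 ranked 132 and 159.

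Closest to Mcpt1 was Klrb1, a lectin-like receptor gene of natural killer and innate lymphoid cells, at 0.35, against a median gene at 0.89. It read 8.72, 8.53 and 7.94 in Apc+/- and 7.60, 7.18 and 7.17 in Apc+/-Atg7-/- duodenum, so that replicate 3 was the lowest within each genotype, as for Mcpt1. The difference was -1.08 (SE 0.19) and did not pass (limma adjusted p = 0.146). The tuft cell gene Rgs13 (0.39), the defensin Defa39 (0.39), the colipase Clps (0.40) and the pancreatic lipase-related gene Pnliprp2 (0.41) followed. Retnlb ranked 20 and Mcpt2 ranked 43. Such a measure rewards any gene with a difference of similar size between the genotypes, and is given as a description of 6 arrays.

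**Figure D5:**
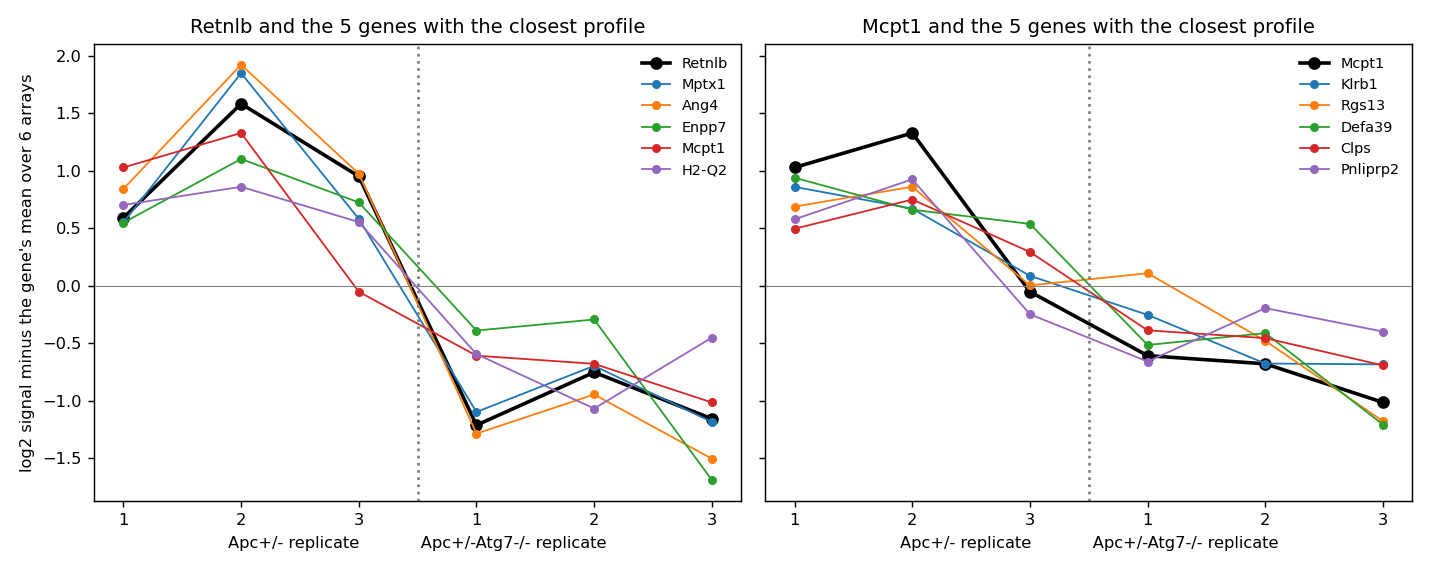
Log2 signal minus the gene's own mean (y axis) on each array (x axis, Apc+/- replicates left of the dotted line, Apc+/-Atg7-/- replicates right of it) for Retnlb and Mcpt1 (black) and the 5 genes closest to each. Lines join the values of 1 gene, and replicates have no order. Apc+/- replicate 2 is the highest array for Retnlb and Mcpt1, and Apc+/- replicate 3 is the lowest Apc+/- array for Mcpt1 but not for Retnlb.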

How the data were processed

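Per the labels' protocols, total RNA of duodenum was labelled as cDNA and read on 6 Affymetrix arrays of the whole-transcript type (3 per genotype). The authors deposited 1 value per probe set and array, and RMA and Partek are named, without versions, per the submitters' processing notes. The deposited values (2.40 to 13.3) were taken as log2, a base read from their range. Normalization between arrays, as RMA usually does it, removes shifts shared by a whole array.

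Of 28853 probe sets, 21789 carry 1 gene symbol in the platform annotation, 1621 several and 5443 are unlisted. The brightest probe set stood for each of 19938 genes, of which 19855 were found in RefSeq (GRCm38.p6). The unpaired genotype comparison used limma 3.58.1 (R 4.3.3), with moderated variances, a two-sided test on 9.70 degrees of freedom and Benjamini-Hochberg adjustment. Since the labels name no animals, a p-value here measures the spread between samples, which may be technical, and 3 arrays per genotype limit the precision. The scripts were tested on simulated data with known answers. There, 42% of planted log2 differences of 0.5 and 94% of those of 1 passed, with 2 false calls. A gene with a difference of 0.5 or less can thus easily be missed.

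The members and lists were chosen with earlier results of these data known. From each list the text names the genes past an adjusted p of 0.05, or otherwise the 2 with the smallest p, and exceptions are marked or are named for their role in the pathway. The labels state no litter or day behind a replicate number, so numbers were not taken as pairs. Same-numbered arrays deviated together at r = 0.15, -0.07 and 0.24, and differently numbered ones at r = -0.31 to 0.18. Summed signals of a list were added on the linear scale and given as log2, so the brightest genes weigh most. Promoter windows (RefSeq, GRCm38.p6) were found for 7 of the 10 members. Alternatives were a replicate block, other normalizations, other variance estimates, array weights, filters on dim genes, other probe set rules, another threshold and leaving out each array. Alignments were made with Biopython 1.88 and plots with matplotlib 3.10.9 (Python 3.11.15).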

Additional observations from a re-analysis of the deposited data

How the results depend on the processing

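Each of the 10 genes kept its direction under the alternatives that retained it (the filters on dim genes removed 5 and 9 of them), except Cpa3, Tpsb2 and Il13, which lay near 0 and changed sign with 1 array left out (ranges -0.074 to 0.058, -0.14 to 0.010 and -0.15 to 0.038). Retnlb passed under all alternatives that kept it apart from no variance moderation (limma adjusted p = 0.765) and leaving out the male array. With the replicate number as a block, 2 of the 10 were called lower, Mcpt1 (limma adjusted p = 0.0112) joining Retnlb, and 22 genes were called higher and 22 lower over all genes. Without variance moderation 0 members, 0 higher and 0 lower genes were called, while 3 members, 479 higher and 509 lower genes had an unadjusted p under 0.05. With the lowest 50% of genes removed, 0 members were called, since Il13 alone was kept. Testing every probe set gave 23 higher and 16 lower. With 1 array left out, 0 to 2 members were called lower, and over all genes 0 to 16 were called higher and 2 to 11 lower. The fewest calls (0 members, 0 higher and 2 lower) came without the male array. Signals near the bottom of the array's range limit what could be seen for Mcpt4, Cma1, Cpa3, Il4 and Il5. In Apc+/-Atg7-/- duodenum the means of Retnlb (4.78) and Mcpt1 (5.09) were as low, so the folds of both genes may be compressed.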

Other observations

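Apc+/- replicate 2, which had the highest Retnlb and Mcpt1 signals, also read highest for the B cell gene Ms4a1, at 6.45 against 4.77 and 4.85 on the other Apc+/- arrays and 4.74 to 4.85 in Apc+/-Atg7-/- duodenum. The 5 measured B and plasma cell genes had a median difference of -0.14, with Mzb1 at -0.18 (SE 0.14) next to Ms4a1 by p. The part of these cells in the Retnlb and Mcpt1 signals was not tested.

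Other resident cells were read through lists of their markers. In T cell (5 genes), macrophage (6), enterocyte (8), smooth muscle (6) and fibroblast (6) lists 0 genes passed by limma. There were 0, 0, 1, 1 and 0 lower (2.73% of all genes) and 0 higher (2.38%) at an unadjusted p under 0.05. The median differences of the lists were -0.15, -0.11, -0.11, -0.38 and -0.02 in that order. The genes with the smallest p were Cd3e (-0.17, SE 0.11) and Cd3d (-0.22, SE 0.14) for T cells, Lyz2 (-0.30, SE 0.15) and Cx3cr1 (-0.10, SE 0.09) for macrophages, and Lct (-0.82, SE 0.34) and Apoa4 (-0.22, SE 0.12) for enterocytes. They were Des (-0.49, SE 0.19) and Tagln (-0.33, SE 0.16) for smooth muscle and Pdgfra (-0.17, SE 0.11) and Lum (-0.08, SE 0.12) for fibroblasts. Of 6 pancreatic acinar genes, 1 fell, Clps (-1.03, SE 0.13, limma adjusted p = 0.0219), beside 0.0401% of all genes. The median of that list was -0.10.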
